A study of Mus musculus with 76 samples.

Results

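A group of 8 genes of retinoic acid synthesis, binding and reception was followed through all 38 tumors of a mouse RNA-seq study of catalase. They were *Stra6*, *Rdh10*, *Aldh1a1*, *Aldh1a2*, *Aldh1a3*, *Crabp2*, *Rarb* and *Rarg*, 8 of the 55536 genes counted. They were chosen by the level of *Aldh1a3*, which was lower in catalase-expressing 4T1-CAT tumors given CAT-ABP + alum than in 4T1-CAT tumors given alum, so the values of the members in that contrast are given as a description, without a test. Tumors were grown under the skin of the flank of Balb/c mice, female and 6 to 12 weeks old per the study's methods. CT26 is a colorectal carcinoma line and 4T1 is a mammary carcinoma line. CAT-ABP joins catalase to an alum-binding peptide, a design meant to keep the enzyme outside the cells near the injection site. Tumors received 20 µg CAT-ABP with 100 µg alum (6 CT26, 6 4T1 and 5 4T1-CAT tumors) or alum alone (5 CT26, 5 4T1, 5 4T1-CAT and 6 4T1-control tumors). By the labels, injection was on day 6 and tumors were harvested on day 8, and these days are used here. The paper's text places the DOX diet, the injection and the harvest each a day later. 4T1-CAT cells carry a lentiviral human catalase gene with GFP that doxycycline (DOX) induces, and 4T1-control cells carry GFP alone. Mice bearing either engineered line ate DOX diet from day 4, whereas mice bearing CT26 or parental 4T1 did not. All 7 groups received alum, so no group shows the genes without it.

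Retinoic acid is made from vitamin A inside cells. The membrane receptor STRA6 takes up retinol, RDH10 oxidizes retinol to retinal, and the ALDH1A enzymes oxidize retinal to retinoic acid in an irreversible step. CRABP2 carries retinoic acid to the nucleus, where the receptors RARβ and RARγ bind DNA as partners of the RXR proteins and switch on target genes, *Rarb* itself being a classical target. In mammary and colon tissue, ALDH1A activity is widely used as a mark of stem-like epithelial cells.

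Values are given in CPM, counts per 1000000 counts of the tumor after TMM normalization (trimmed mean of M-values, which corrects for differences in composition). HT3DGE reads transcripts near their 3′ end and the counts are not scaled by length, so levels are compared between tumors and not between genes. The 2 technical replicate libraries of a tumor, of 46233 to 6958626 counts each, were summed. A tumor then held 493086 to 9077683 counts, and 2 tumors fell under 1000000 counts, namely 4T1-control replicate 2 and 4T1 CAT-ABP + alum replicate 4. Over the 7 groups, 14646 genes passed the filter on low counts. *Aldh1a2*, *Aldh1a3*, *Crabp2*, *Rdh10* and *Rarg* were among them, and *Stra6*, *Aldh1a1* and *Rarb* were not.

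*Stra6* (GRCm38 chr9:58063788-58153996, + strand), the retinol receptor, was near the limit of detection in CT26 and low in the 4T1 lines. In CT26 tumors given alum it stood at 0.198, 0, 0, 0.586 and 0.241 CPM, and in 4T1 tumors given alum at 0.683, 1.15, 2.00, 1.91 and 2.09 CPM. Every 4T1 tumor thus lay above every CT26 tumor, although the group totals behind these values were only 4 and 41 counts. A count of 0 allowed up to 1.52 CPM in CT26 alum replicate 2 and 0.410 CPM in replicate 3 (3 counts of the tumor's total, counting error only). The groups given CAT-ABP + alum had the same order without overlap. There the CT26 tumors ranged from 0 to 0.326 CPM (median 0.256) and the 4T1 tumors from 0.595 to 7.16 CPM (median 1.47), from 8 and 61 counts. Mean levels were 0.975 ± 0.481 CPM in 4T1-CAT with alum, 1.43 ± 0.261 CPM in 4T1-CAT with CAT-ABP + alum (SD, n = 5 each) and 1.32 ± 0.637 CPM in 4T1-control (SD, n = 6), and these 3 groups overlapped. The gene did not pass the filter in any comparison. Without the filter, the quasi-likelihood test of edgeR (Benjamini-Hochberg adjustment over all genes) gave a log2 fold change of −2.94 (SE 0.81, adjusted p = 0.00436) for CT26 against 4T1 under alum and −2.95 (SE 0.67, adjusted p = 0.000504) under CAT-ABP + alum.

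*Rdh10* (chr1:16105774-16133734, + strand) encodes the retinol dehydrogenase of the rate-limiting step from retinol to retinal, and its levels did not overlap between CT26 and the 4T1 lines. In CT26 tumors given alum it stood at 20.2, 5.84, 15.9, 14.9 and 16.6 CPM. In 4T1 tumors given alum it stood at 45.4, 59.8, 65.7, 50.3 and 44.7 CPM. The highest CT26 tumor thus lay below the lowest 4T1 tumor. Under CAT-ABP + alum, CT26 tumors ranged from 11.1 to 19.7 CPM (median 17.1) and 4T1 tumors from 27.5 to 67.2 CPM (median 50.2), again without overlap. Over all treatments, the 11 CT26 tumors ended at 20.2 CPM and the 27 tumors of the 3 4T1 lines began at 21.8 CPM. Group means fell in the order 4T1 alum, 4T1 CAT-ABP + alum, 4T1-control, 4T1-CAT CAT-ABP + alum, 4T1-CAT alum, CT26 CAT-ABP + alum and CT26 alum, at 53.2, 49.6, 41.3, 40.0, 35.9, 16.6 and 14.7 CPM with SDs of 9.22, 15.2, 7.12, 5.65, 11.3, 2.90 and 5.33. Neighbours in this order overlapped except for the step from 4T1-CAT alum to CT26 CAT-ABP + alum. Differences between CT26 and parental 4T1 were common among all genes. By edgeR's quasi-likelihood test 42.4% of tested genes were called under alum and 45.5% under CAT-ABP + alum.

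*Aldh1a1* (chr19:20492715-20643465, + strand) and *Aldh1a2* (chr9:71215789-71296243, + strand) encode the other retinaldehyde dehydrogenases, and both were low in all groups. *Aldh1a1* ranged from 0 to 1.91 CPM over the 11 CT26 tumors and from 0 to 1.56 CPM over the 27 tumors of the 4T1 lines. In 4T1 tumors given alum, 4 of 5 tumors had no count and the remaining tumor had 1. CT26 tumors given alum held 8, 0, 14, 4 and 3 counts, so their range included the 0 of the 4T1 tumors. *Aldh1a1* did not pass the filter, and without it this difference was called by edgeR's quasi-likelihood test (adjusted p = 0.00208) and by DESeq2 (adjusted p = 0.00356). The fitted log2 fold change, 4.08 (SE 1.05), rests on the 1 count of the 4T1 tumors. Under CAT-ABP + alum, where 4T1 tumors held 2, 3, 4, 0, 6 and 2 counts and CT26 tumors 4, 9, 1, 1, 4 and 2, it was 0.24 (SE 0.67, adjusted p = 0.834, edgeR without the filter). *Aldh1a2* ranged from 0.163 to 3.41 CPM in CT26 and from 0 to 3.58 CPM in the 4T1 lines, and its group means lay between 0.556 ± 0.602 CPM (4T1 alum, SD, n = 5) and 1.61 ± 1.12 CPM (CT26 CAT-ABP + alum, SD, n = 6). These ranges overlapped in all 7 groups, and at this depth no difference in *Aldh1a2* was detectable. Of 6 *Aldh1a1* transcripts, 3 share windows of 50 bases with 1 other gene, at most 151 windows. The counts of *Aldh1a1* were nonetheless whole in all 39 libraries with a count.

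*Aldh1a3* (chr7:66390890-66427517, − strand), the retinaldehyde dehydrogenase on which the choice of genes rested, had counts in all 76 libraries. In 4T1-CAT tumors given alum it stood at 61.5, 47.1, 71.8, 65.4 and 53.4 CPM. In 4T1-CAT tumors given CAT-ABP + alum it stood at 41.0, 40.1, 35.9, 33.7 and 34.5 CPM. The groups did not overlap, and the fitted log2 fold change was −0.69 (SE 0.12), or 0.619 times the level with alum. These are the values that chose the genes. In this contrast 0% of 13093 tested genes passed an adjusted p of 0.05 with edgeR's quasi-likelihood test, 2000 genes had an unadjusted p under 0.05, and DESeq2 called 260 genes. The other 3 tested members had fitted log2 fold changes of −0.53 (SE 0.46) for *Crabp2*, 0.14 (SE 0.18) for *Rdh10* and 0.40 (SE 0.31) for *Rarg*, and their groups overlapped.

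The libraries behind this contrast differed in depth. In technical replicate 1, *Aldh1a3* stood at 45.6, 38.6, 28.7, 31.9 and 33.0 CPM of the library total in the tumors given CAT-ABP + alum and at 67.7, 53.9, 61.3, 61.6 and 72.4 in those given alum. In technical replicate 2 the same tumors stood at 46.3, 122, 46.2, 64.1 and 60.6 and at 64.8, 46.0, 61.1, 61.4 and 53.5. The groups were therefore apart in technical replicate 1 and overlapped in technical replicate 2, with fitted log2 fold changes of −0.92 and 0.05. The median library held 4165261 counts with CAT-ABP + alum and 1596036 with alum in technical replicate 1, against 1800788 and 3312864 in technical replicate 2. The value of 122 came from a library of 211876 counts. Over all 38 tumors, *Aldh1a3* was higher in the shallower of both libraries in 27, with 44.7 against 38.5 as medians. Among 5049 genes with a count in every library the median gene was higher in the shallower library in 18 of 38 tumors, and 265 genes (5.25%) reached 27 or more. *Rdh10* was higher in the shallower library in 15 tumors. For *Aldh1a3* the number was 5 of 5 in both 4T1-CAT groups, 6 of 6 in CT26 with CAT-ABP + alum and 0 of 6 in 4T1-control. Technical replicates 1 and 2 of the 4T1-CAT tumors also differed in the first part of the library index tag in the deposited sample table. The part of library depth or of the tag in the difference was not tested.

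**Figure D1:**
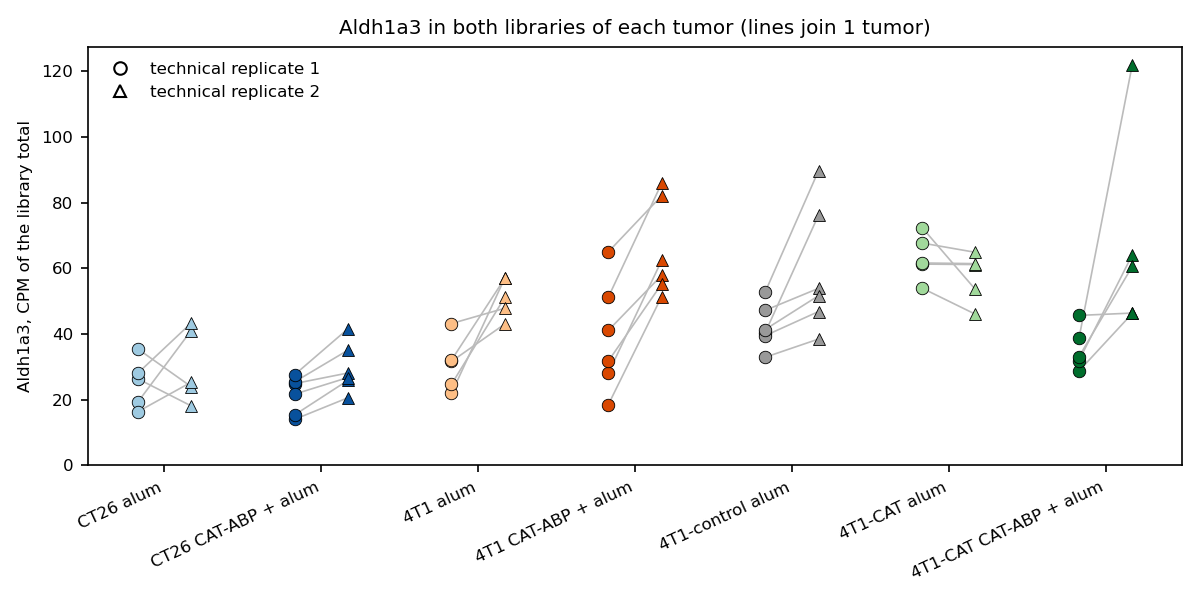
*Aldh1a3* in CPM of the library total in each of the 76 libraries, by group. Library totals are not drawn. Circles are technical replicate 1, triangles are technical replicate 2, and lines join both libraries of a tumor. In 4T1-CAT with CAT-ABP + alum the deeper library, technical replicate 1, is the lower in 5 of 5 tumors, and the highest value, 122, is in a library of 211876 counts.

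The counts of *Aldh1a3* also carried reads that the counting divided between genes. They were not whole numbers in 74 of 76 libraries, whereas those of the other members were whole in all libraries except *Rarb* in 1. Of the 5049 genes with a count in every library, 1204 (23.8%) were not whole in 74 or more. Of 5 annotated *Aldh1a3* transcripts, *Aldh1a3-203* (1496 bases) shares 53 of its 1447 windows of 50 bases with transcripts of 100 other genes. The shared windows cover 103 bases at chr7:66408600-66408702 in the annotated UTR, 89 bases from the end of that transcript. *Rdh10*, *Crabp2*, *Stra6*, *Aldh1a2* and *Rarg* share no such window with another gene. How many *Aldh1a3* counts came from this stretch was not tested, since the files hold totals per gene.

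The genes most like *Aldh1a3* also had counts that were not whole, as some genes most like other members did. Over the 38 tumors, with each group centred on its mean log2 CPM (prior count 2), the highest Pearson correlations with *Aldh1a3* were those of *Gm45477* (r = 0.921), *Gm49932* (r = 0.914) and *Teddm1b* (r = 0.909). These points share library depth. The 3 genes were not whole in 76, 75 and 75 of 76 libraries, and their transcripts share windows with 182, 248 and 111 other genes. Without the 2 tumors under 1000000 counts, r was 0.927, 0.927 and 0.915. In the contrast of 4T1-CAT tumors their fitted log2 fold changes were −0.48 (SE 0.16), −0.40 (SE 0.16) and −0.49 (SE 0.13), which is again a description of the contrast behind the choice. *Gm45477* ranged from 52.2 to 77.7 CPM with CAT-ABP + alum and from 67.1 to 120.8 CPM with alum.

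**Figure D2:**
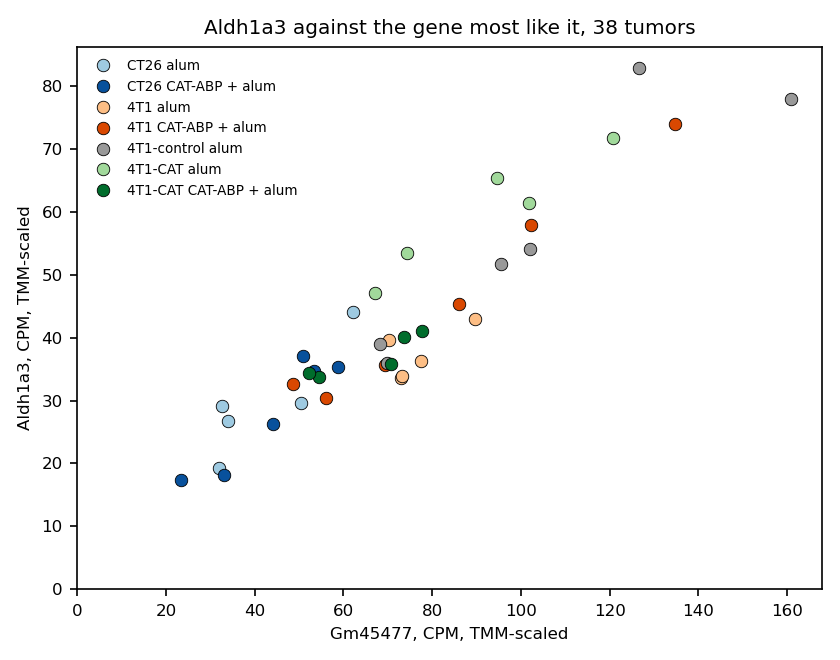
Level of *Aldh1a3* against that of *Gm45477*, the gene most like it, in CPM after TMM normalization. Each point is 1 of 38 tumors, coloured by group. The levels are not centred here, whereas r = 0.921 is that of log2 CPM centred on group means.

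Across the 7 groups, *Aldh1a3* was highest in the engineered lines given alum. Mean levels in descending order were 59.8 ± 9.74 CPM in 4T1-CAT alum, 57.0 ± 19.6 CPM in 4T1-control, 46.0 ± 17.1 CPM in 4T1 CAT-ABP + alum, 37.3 ± 4.02 CPM in 4T1 alum, 37.0 ± 3.34 CPM in 4T1-CAT CAT-ABP + alum, 29.8 ± 9.04 CPM in CT26 alum and 28.2 ± 8.85 CPM in CT26 CAT-ABP + alum (SD, n = 5 or 6). All neighbours in this order overlapped. The 5 4T1 tumors given alum stood at 43.0, 33.6, 33.8, 36.3 and 39.7 CPM, a range that overlapped that of 4T1-CAT with CAT-ABP + alum. The 4T1-control tumors spread from 36.0 to 83.0 CPM (median 52.9) and the 4T1 tumors given CAT-ABP + alum from 30.4 to 74.0 CPM (median 40.5). The spread within either of these groups thus covered the mean of every 4T1 line. The CT26 tumors reached from 19.2 to 44.1 CPM with alum (26.7, 29.2, 19.2, 29.6 and 44.1) and from 17.3 to 37.0 CPM (median 30.5) with CAT-ABP + alum.

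*Crabp2* (chr3:87948666-87953376, + strand), which encodes the carrier of retinoic acid to its receptors, was higher in CT26 than in 4T1. It stood at 4.74, 13.1, 4.22, 6.15 and 13.97 CPM in CT26 tumors given alum and at 0.341, 0.287, 1.64, 1.67 and 0.523 CPM in 4T1 tumors given alum. The lowest CT26 tumor lay above the highest 4T1 tumor. Under CAT-ABP + alum, CT26 tumors ranged from 5.03 to 19.7 CPM (median 7.62) and 4T1 tumors from 0.685 to 5.97 CPM (median 1.43). These groups overlapped by the 4T1 tumor at 5.97 CPM, which rests on 5 counts in the tumor of 837522 counts. In 4T1-CAT the gene stood at 2.17, 3.89, 1.84, 2.32 and 1.96 CPM with alum and at 0.673, 1.61, 3.06, 0.601 and 2.95 CPM with CAT-ABP + alum, where 3 of 5 tumors lay below all tumors given alum. The mean in 4T1-control was 1.23 ± 1.23 CPM (SD, n = 6). Of these tumors, replicate 2 had no count, which at its depth allowed up to 6.08 CPM.

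The receptors differed in detection. *Rarb* (chr14:16430839-16819156, − strand) reached 13.0 estimated counts over all 76 libraries and had a count in 9 of them. No 4T1 tumor given CAT-ABP + alum and no 4T1-control tumor had a count, which allowed up to 0.100 and 0.156 CPM over those groups. Its highest value was 1.17 CPM, from 4 counts, in CT26 alum replicate 4. *Rarb* transcripts also share windows with *Top2b* on the opposite strand, and whether the counting used strand is not given in the sources used here. *Rarg* (chr15:102234938-102257517, − strand) was counted in all tumors but 1 and was higher in CT26. It stood at 10.1, 10.2, 15.1, 7.91 and 9.88 CPM in CT26 tumors given alum and at 4.44, 4.02, 4.00, 5.26 and 5.23 CPM in 4T1 tumors given alum, without overlap. Under CAT-ABP + alum the ranges were 5.69 to 12.2 CPM (median 9.84) in CT26 and 2.58 to 7.01 CPM (median 5.94) in 4T1, and they overlapped. In 4T1-CAT it stood at 2.67, 3.50, 5.52, 2.94 and 3.54 CPM with alum and at 4.88, 4.21, 3.28, 3.41 and 7.60 CPM with CAT-ABP + alum, so these groups overlapped as well. The mean in 4T1-control was 3.45 ± 2.12 CPM (SD, n = 6), including the shallow replicate 2 without a count.

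Receptor dimers of this family bind pairs of hexamers repeated in the same direction, and such a pair in the *Rarb* promoter is the textbook retinoic acid response element. RefSeq promoter windows (GRCm38.p6, 250 bases before to 50 after a transcript start) were given for 5 of the 8 members, 10 windows in all. They were searched on both strands for any 2 of 4 hexamers repeated directly with 1, 2 or 5 bases between them. The hexamers were the consensus AGGTCA, the form written AGTTCA, the further form GGGTCA, and lastly the form GGTTCA. These arrangements occurred in 0.222%, 0.268% and 0.097% of 32851 windows. A window can hold more than 1 arrangement. Among the members' windows, only that of *Rarb* held a match, with 5 bases of spacing and its first base at position −53 from the start. The window of *Rarb* is shown with the repeated hexamers in capitals, beside that of *Rarg*, the receptor that was counted in nearly all tumors. *Rarg* had 2 windows, neither with a match, and that at its upstream start is shown.
Rarb, chr14:16575427-16575726, − strand: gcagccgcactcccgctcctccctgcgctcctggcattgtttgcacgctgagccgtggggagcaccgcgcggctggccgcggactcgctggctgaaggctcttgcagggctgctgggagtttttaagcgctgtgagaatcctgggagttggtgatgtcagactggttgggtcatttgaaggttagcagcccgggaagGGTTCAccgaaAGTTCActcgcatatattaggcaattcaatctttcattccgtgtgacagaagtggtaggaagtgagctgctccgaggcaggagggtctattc
Rarg, chr15:102257473-102257772, − strand: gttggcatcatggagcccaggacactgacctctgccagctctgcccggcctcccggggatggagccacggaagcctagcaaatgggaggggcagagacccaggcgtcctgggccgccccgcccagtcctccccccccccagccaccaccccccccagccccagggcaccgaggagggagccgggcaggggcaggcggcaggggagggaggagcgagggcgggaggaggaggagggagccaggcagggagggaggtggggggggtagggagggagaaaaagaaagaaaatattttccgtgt
A match is a description of these letters, and the absence of a match in *Rarg* concerns only its 2 windows.

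Between the tumor models, *Rdh10* was lower and *Crabp2* and *Rarg* were higher in CT26, both with alum and with CAT-ABP + alum. Under alum, *Rdh10* had a log2 fold change of −1.81 (SE 0.22, adjusted p = 9.52e-06, 0.286 times the 4T1 level), *Crabp2* of 2.95 (SE 0.50, adjusted p = 0.000231) and *Rarg* of 1.22 (SE 0.23, adjusted p = 0.000592) by edgeR's quasi-likelihood test, adjusted after Benjamini and Hochberg. *Aldh1a3* did not pass, at −0.33 (SE 0.19, adjusted p = 0.174). Of the 8 members 4 were tested and 3 called, 2 higher and 1 lower, where 42.4% of all 12817 tested genes were called. *Crabp2* passed the filter on low counts only through the CT26 tumors, where it was high, and did not pass it among the parental 4T1 tumors alone. A tested *Crabp2* therefore had to differ, here and under CAT-ABP + alum, and its p and the counts of called members that include it are a description. The first part of the library index tag, taken from the deposited sample table, differed between technical replicates 1 and 2. Within each technical replicate it was the same in CT26 and in 4T1 alum replicates 1 and 2 and another in the other 3. With it as a covariate, the same 3 members were called and the value of *Crabp2* was 4.60. The comparison of the tumors given CAT-ABP + alum used other tumors. It gave −1.63 (SE 0.18, adjusted p = 9.88e-07) for *Rdh10*, 2.45 (SE 0.43, adjusted p = 0.000167) for *Crabp2*, 0.79 (SE 0.26, adjusted p = 0.0182) for *Rarg* and −0.74 (SE 0.25, adjusted p = 0.0213) for *Aldh1a3*. All 4 tested members were called, 2 higher and 2 lower, where 45.5% of 13016 tested genes were called. In these tumors the calls of *Rdh10* and *Crabp2* held in each technical replicate alone. Under alum, *Rdh10* was called in each, whereas *Crabp2* and *Rarg* did not pass the filter in technical replicate 2 alone. Under CAT-ABP + alum, the call of *Rarg* was lost in technical replicate 1 alone (0.64, adjusted p = 0.180) and in technical replicate 2 alone (0.90, adjusted p = 0.0517). That of *Aldh1a3* in the same comparison was lost in technical replicate 1 alone (−0.60, adjusted p = 0.129), without CT26 CAT-ABP + alum replicate 1 (−0.64, adjusted p = 0.0519) and without 4T1 CAT-ABP + alum replicate 1 (−0.52, adjusted p = 0.0654). Under alum, *Aldh1a3* was called without CT26 alum replicate 5 (−0.53, adjusted p = 0.0146).

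**Figure D3:**
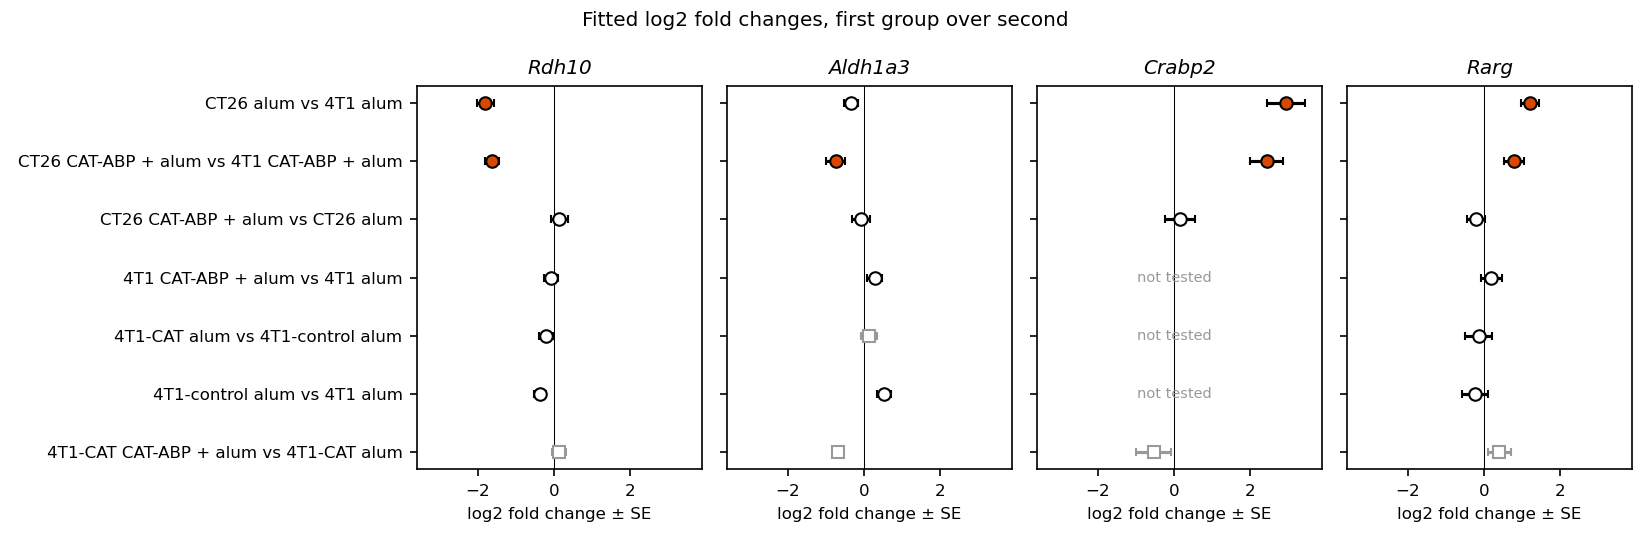
Log2 fold change of *Rdh10*, *Aldh1a3*, *Crabp2* and *Rarg* with its standard error in each comparison except the interaction, with 0 as no difference. A gene that did not pass the filter of a comparison is marked as not tested. Filled orange points passed an adjusted p of 0.05 (edgeR's quasi-likelihood test, Benjamini-Hochberg over all tested genes), white circles did not, and grey squares are described without a test. *Rdh10* is at −1.81 and −1.63 and *Crabp2* at 2.95 and 2.45 between CT26 and 4T1. The orange points of *Crabp2* are a description, since a tested *Crabp2* had to differ.

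Markers of cell types moved with this difference. The summed level of 8 epithelial markers was 40.7 to 85.3 CPM in CT26 tumors and 1568 to 2882 CPM in the tumors of the 4T1 lines. All 6 tested markers were lower in CT26 in both comparisons, where 42.4% (alum) and 45.5% (CAT-ABP + alum) of all tested genes were called. Within CT26 only 4 of the 8 passed the filter. The others of the 6 were tested only through 4T1, where they were high, and had to differ. In CT26, which is a carcinoma line, 7 of the 8 markers had a count and *Cldn7* was at 0. Of 10 fibroblast markers, 1 was higher and 6 were lower in CT26 under alum, and 1 was higher and 7 were lower under CAT-ABP + alum. All 4 tested T cell markers were higher in CT26 in both comparisons. Among parental 4T1 tumors 3 of 5 passed the filter, so a T cell marker tested only through CT26 had to differ. In whole tumors, fewer cells of a type and less RNA per cell cannot be told apart, and the part of these cell types in the members' differences was not tested.

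Neither form of catalase gave a call among the members that were tested. With CAT-ABP + alum against alum in CT26, log2 fold changes were −0.07 (SE 0.23) for *Aldh1a3*, 0.16 (SE 0.39) for *Crabp2*, 0.14 (SE 0.23) for *Rdh10* and −0.20 (SE 0.24) for *Rarg*, all with an adjusted p of 1 (edgeR's quasi-likelihood test). In parental 4T1 they were 0.29 (SE 0.20) for *Aldh1a3*, −0.07 (SE 0.18) for *Rdh10* and 0.20 (SE 0.27) for *Rarg*, with an adjusted p of 0.999 by the same test. For 4T1-CAT against 4T1-control, both given alum, they were −0.21 (SE 0.19) for *Rdh10* and −0.14 (SE 0.36) for *Rarg*, with an adjusted p of 1 by the same test. *Aldh1a3*, at 0.13 (SE 0.20), is described only, since its 4T1-CAT tumors are those of the contrast that chose it. In each of these comparisons 0% of all tested genes were called by edgeR, while an unadjusted p under 0.05 was reached by 311, 377 and 637 genes. None of the tested members had an unadjusted p under 0.05 by edgeR, and DESeq2 called none of the 8. *Aldh1a1* did not pass the filter. Without it, *Aldh1a1* was at 2.92 (SE 1.11, adjusted p = 0.788, edgeR's quasi-likelihood test) for CAT-ABP in 4T1, against 1 count in all 4T1 tumors given alum. The effect of CAT-ABP in CT26 minus that in 4T1 was −0.38 (SE 0.34) for *Aldh1a3*, −0.88 (SE 0.99) for *Aldh1a2*, −0.48 (SE 0.70) for *Crabp2*, 0.20 (SE 0.30) for *Rdh10* and −0.41 (SE 0.35) for *Rarg*, all with an adjusted p of 1 by edgeR's quasi-likelihood test. Here too 0% of 14160 genes were called, and 509 had an unadjusted p under 0.05, none of them a member. DESeq2 called no member here either. Without the filter *Aldh1a1* was at −3.86 (SE 1.22, adjusted p = 0.781, edgeR's quasi-likelihood test), which rests on the same 1 count.

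The 4T1-control tumors were also compared with the parental 4T1 tumors given alum, where the engineered line and the DOX diet cannot be told apart. *Aldh1a3* was at 0.53 (SE 0.19, adjusted p = 0.323) and *Rdh10* at −0.36 (SE 0.16, adjusted p = 0.406), and *Rarg* at −0.23 (SE 0.33, adjusted p = 0.881), by edgeR's quasi-likelihood test. The unadjusted p was 0.0130 for *Aldh1a3* and 0.0313 for *Rdh10*, and no member passed the adjusted threshold, where 0% of 12431 tested genes did and 1307 had an unadjusted p under 0.05. DESeq2 gave no adjusted p for the members here. The 3 4T1 alum tumors with replicate numbers 3 to 5 shared the first part of the index tag with the 4T1-control tumors and replicates 1 and 2 did not.

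In the tumors of the contrast that chose the genes, the ranges of marker sums overlapped between the groups for every list. Fibroblast markers summed to 2862 to 3592 CPM with CAT-ABP + alum and to 3083 to 6303 CPM with alum in 4T1-CAT. Dendritic cell markers summed to 30.5 to 41.9 CPM against 34.7 to 88.8 CPM, adipocyte markers to 32.8 to 87.4 CPM against 59.8 to 164.2 CPM, and epithelial markers to 1757 to 2683 CPM against 1848 to 2342 CPM. Skeletal muscle markers summed to 155.4 to 241.7 CPM against 201.2 to 506.3 CPM, and neutrophil markers to 70.76 to 118.4 CPM against 97.57 to 182.3 CPM. T cell markers summed to 16.65 to 27.58 CPM against 17.04 to 49.89 CPM, and macrophage markers to 1045 to 2768 CPM against 1799 to 3259 CPM. For endothelium it was 108.1 to 177.5 CPM against 126 to 259.6 CPM, and for epidermis 29.31 to 165.4 CPM against 35.78 to 50.6 CPM. No marker was called in this contrast, where 0% of 13093 tested genes were. The part of these markers in the values of *Aldh1a3* was not tested.

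The wider retinoid pathway was followed in a list of 60 other genes of retinoid carriage, oxidation, degradation, binding, reception and response. Between CT26 and 4T1 under alum, 36 of them were tested, of which 14 were higher and 7 lower in CT26 (58.3%, against 42.4% of all genes), with a median log2 fold change of 0.39 against 0.02 over all genes. Under CAT-ABP + alum, 37 were tested, of which 11 were higher and 11 lower (59.5%, against 45.5%), with a median of 0.32 against −0.02. *Adh7*, a class IV alcohol dehydrogenase that oxidizes retinol, averaged 0.788 CPM in 4T1 and 39.8 CPM in CT26 under alum (log2 fold change 5.74, SE 0.29, adjusted p = 8.59e-10). *Rarres1*, named for its response to retinoic acid receptors, averaged 1.16 and 62.3 CPM (5.80, SE 0.31, adjusted p = 1.63e-09). *Crabp1*, the second cellular binding protein of retinoic acid, was lower in CT26 (−2.67, SE 0.16, adjusted p = 6.03e-09), the opposite direction to *Crabp2*. *Hoxa5*, a homeobox transcription factor, was lower in CT26 (−4.27, SE 0.23, adjusted p = 1.47e-09). Under CAT-ABP + alum the 4 genes with the smallest adjusted p were *Adh7* (5.32, SE 0.24, adjusted p = 6.54e-12), *Rarres1* (5.39, SE 0.32, adjusted p = 2.13e-10), *Crabp1* (−2.28, SE 0.15, adjusted p = 7.38e-10) and *Aldh3a1* (5.43, SE 0.37, adjusted p = 1.22e-09), an aldehyde dehydrogenase known from cornea and stomach. *Aldh3a1* averaged 16.5 CPM in CT26 and 0.283 CPM in 4T1 there. *Adh7*, *Rarres1* and *Aldh3a1* did not pass the filter in the comparisons among 4T1 tumors, so they were tested only through CT26, where they were high, and had to differ. *Crabp1* and *Hoxa5* passed it within either tumor model.

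By role, both cellular binding proteins of this list, which does not hold *Crabp2*, were lower in CT26 in both comparisons. Of 17 oxidoreductases, 9 were tested, with 3 higher under alum and 3 higher and 1 lower under CAT-ABP + alum. Of 9 genes of carriage and storage, 4 were tested, with 3 higher and 1 lower under alum and 2 higher under CAT-ABP + alum. Of the other receptors, *Rara* was lower under CAT-ABP + alum (−1.21, adjusted p = 0.00191). Among the degrading enzymes *Cyp26b1* was tested, and it was called in neither comparison. Of 12 targets, 7 were tested under alum, with 4 higher and 2 lower, and 8 under CAT-ABP + alum, with 4 higher and 3 lower. In the comparisons of catalase, of 4T1-control with 4T1 and of the interaction, edgeR called none of the 34 to 40 pathway genes tested. By edgeR's quasi-likelihood test, an unadjusted p under 0.05 was reached by 2 of 35 pathway genes for CAT-ABP in CT26 and 4 of 34 in 4T1. Over all tested genes it was reached by 311 of 12830 and 377 of 13092. For 4T1-CAT against 4T1-control it was 2 of 34, against 637 of 12534 of all genes. For 4T1-control against 4T1 it was 0 of 34, against 1307 of 12431, and for the interaction 5 of 40, against 509 of 14160.

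**Figure D4:**
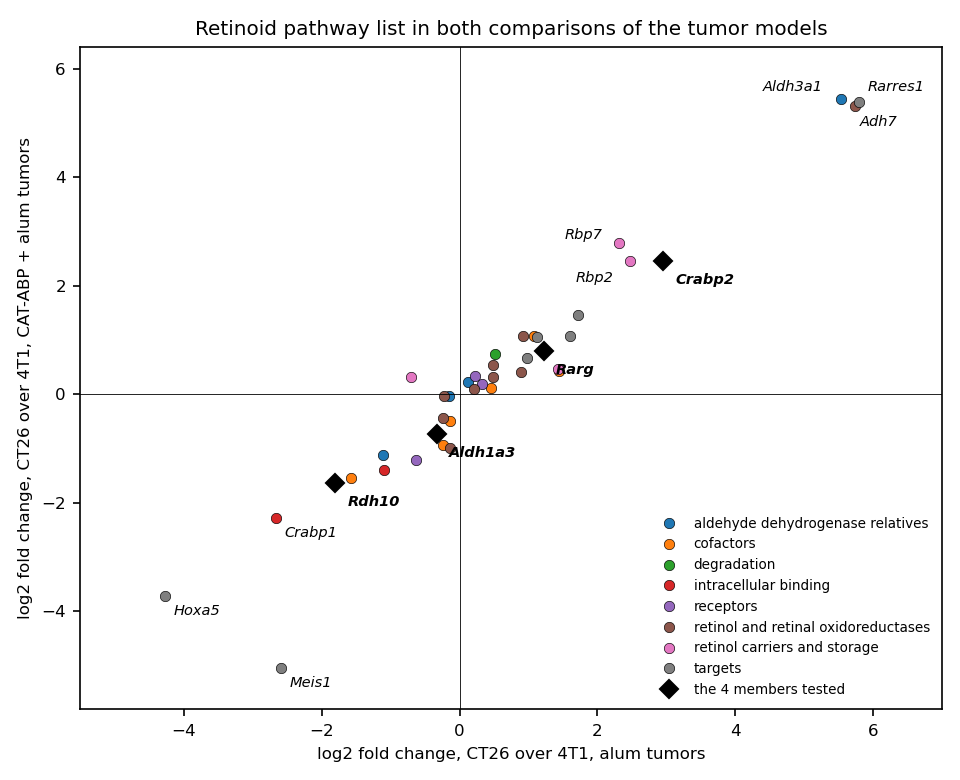
Log2 fold change of CT26 against 4T1 for the tested genes of the pathway list, under alum on the horizontal axis and under CAT-ABP + alum on the vertical axis. Each point is a gene, black diamonds are 4 of the 8 members, and names mark genes beyond 2 in either direction under alum, among them *Adh7* at 5.74 and 5.32.

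The genes most like the other members were also listed, by the same centred correlation over 38 tumors. For *Rarg* they were *Spsb1* (r = 0.881), *Dot1l* (r = 0.872) and *Yeats4* (r = 0.870). Without the 2 tumors under 1000000 counts these fell to 0.582, 0.600 and 0.534, so they rested largely on tumors of low depth. *Rdh10* was most like *Trim35* (r = 0.754), *Memo1* (r = 0.751) and *Fbf1* (r = 0.738), which stood at 0.746, 0.702 and 0.687 without those tumors. *Crabp2* was most like *Gadl1* (r = 0.737), *Shroom3* (r = 0.706) and *Nostrin* (r = 0.686), which stood at 0.605, 0.549 and 0.532 without them. *Fuca1* (r = 0.642) and *Gm37404* (r = 0.677) were among the 3 most like *Aldh1a2*, at 0.641 and 0.633 without them. Counts that were not whole also occurred in *Memo1* (75 of 76 libraries), *Gadl1* (61 of the 63 with a count) and *Gm37404* (47 of 48), whose transcripts share windows with 522, 23 and 46 other genes. Among the members, the strongest relations were those of *Aldh1a3* with *Rarg* (r = −0.519) and of *Aldh1a2* with *Crabp2* (r = 0.472). Both are over all 38 tumors and were not recomputed without the 2 of low depth. In the shallow 4T1-control replicate 2, *Rarg* had no count and *Aldh1a3* stood at 83.0 CPM.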

How the data were processed

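RNA of whole tumors was sequenced by HT3DGE on a NextSeq system, in 2 technical replicate libraries per tumor. The authors used the Smart-seq2 pipeline on Terra and deposited estimated counts per gene, not normalized, of which 39.7% of those above 0 were fractions. Whether molecular identifiers were collapsed is not given in the sources used here. The authors left out some technical replicates for low depth without naming them in the text, and all 76 libraries were used here. Gene names and positions followed GENCODE M21 on GRCm38, in which all 55536 gene IDs were found. The human catalase transgene was not analysed here.

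Counts of the technical replicates were summed per tumor and rounded. After filterByExpr and TMM normalization, edgeR's quasi-likelihood test was run on the tumors of the groups compared (the interaction used the 22 CT26 and parental 4T1 tumors), with Benjamini-Hochberg adjustment over all tested genes at 0.05. Replicates were tumors of separate mice. The comparisons of CAT-ABP in 4T1, of CT26 with 4T1 under alum and of 4T1-control with 4T1 share the 4T1 alum tumors, and the comparison of 4T1-CAT with 4T1-control shares the 4T1-CAT alum tumors with the contrast that chose the genes. The members, the pathway list of 60 genes and the marker lists were chosen with earlier results of these data known. All 8 members were reported by their levels, and fold changes are given for those that passed the filter of a comparison or, where stated, without it, and of the pathway list the 4 with the lowest adjusted p in comparisons with calls. For each member passing the filter over 7 groups, the 3 genes with the highest correlation were named, except 1 for *Aldh1a2* that is not reported here. *Gm45477* and *Rara* were further described, and *Cyp26b1* named, after their values were seen, as were marker values.

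Alternatives were DESeq2, size factors by relative log expression, no filter, 1 model over 7 groups, each technical replicate alone, a block for the replicate number, libraries under 0.25 of the median total (518752 counts, 7 libraries) left out, the first part of the library index tag (from the deposited sample table) as a covariate, a prior count of 0.5 and each tumor left out in turn. Leaving out the tumors under 1000000 counts, and the index tag for CT26 against 4T1 under alum, were added after seeing the data. Correlations used log2 CPM. A count of 0 was read as allowing up to 3 counts. Scripts were tested on simulated data. The tools were edgeR 4.0.16, DESeq2 1.42.0 and limma 3.58.1 in R 4.3.3.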

Additional observations from a re-analysis of the deposited data

Results flagged for a closer look

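Of 54 combinations of a member and a group, 9 held a tumor far from the others of its group by Dixon's test at 95%. Its rate of about 1 in 20 groups by chance holds for normally distributed values. A group with a single tumor above 0 is flagged whatever its count, so the 9 cannot be set against that rate. For *Crabp2*, CT26 CAT-ABP + alum replicate 3 stood at 19.7 CPM against 5.03 to 8.99 CPM in the other tumors, and 4T1-CAT alum replicate 2 at 3.89 CPM against 1.84 to 2.32 CPM. In 4T1 CAT-ABP + alum replicate 4, the tumor of 837522 counts, *Crabp2* stood at 5.97 CPM from 5 counts (0.685 to 2.58 CPM in the others) and *Stra6* at 7.16 CPM from 6 counts (0.595 to 2.96 CPM in the others). For *Rdh10*, CT26 CAT-ABP + alum replicate 4 was low at 11.1 CPM against 17 to 19.7 CPM. The other 4 rested on 1 to 4 counts in groups otherwise at 0, namely *Aldh1a1* in 4T1 alum replicate 5 at 0.261 CPM and *Rarb* in CT26 alum replicate 4 at 1.17 CPM, in 4T1-CAT CAT-ABP + alum replicate 4 at 0.201 CPM and in 4T1-CAT alum replicate 2 at 0.389 CPM. The effect of CAT-ABP did not differ between CT26 and 4T1 past the threshold for any tested member.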

How the results depend on the processing

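Of 633 alternative values of the members' log2 fold changes, 611 were counted as unchanged. Where a test was made, that means the same direction and the same side of the threshold. In the contrast that chose the genes, and for *Aldh1a3* in 4T1-CAT against 4T1-control, it means a shift smaller than the SD within groups. Direction and threshold were not counted there. In the contrast that chose the genes, the number of members past the threshold was 1 by DESeq2 and 1 without the filter, against 0, which is no test since the member is *Aldh1a3*, whose values here made the choice. Of all genes, 260 and 47 passed. Between CT26 and 4T1 under alum, 5 members were called by DESeq2, 5 without the filter (*Stra6* and *Aldh1a1* besides the 3) and 1 in technical replicate 2 alone, against 3. Under CAT-ABP + alum, 2 were called in technical replicate 1 alone, against 4. With each tumor left out in turn, 3 to 4 members were called in both of these comparisons and 0 in all others. Where a test was made, directions turned only for members that were not called. In the contrast that chose the genes, *Aldh1a3* turned from −0.6917 to 0.0453 in technical replicate 2 alone. *Rdh10* turned there as well, from 0.1439 to as low as −0.0181 over the alternatives. For CAT-ABP in CT26, *Crabp2* stood at −0.0796 in technical replicate 1, and with a tumor left out *Aldh1a3* ranged from −0.1992 to 0.1048, *Crabp2* from −0.2071 to 0.4581 and *Rdh10* from −0.0223 to 0.2805. In 4T1, *Rdh10* stood at 0.0065 without the tumor under 1000000 counts and ranged from −0.1786 to 0.0200 with a tumor left out. For 4T1-CAT against 4T1-control, *Rdh10* stood at 0.1111 in technical replicate 1 and *Rarg* ranged from −0.3213 to 0.0429 with a tumor left out. The cause was not tested.

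The replicate number as a block turned *Rarg* to 0.0532 for 4T1-CAT against 4T1-control and changed no other direction or call of a member, with 3 and 4 members called between CT26 and 4T1 and 0 elsewhere. Correlations of same-numbered tumors ran from −0.288 to 0.334. They were not compared with those of tumors of unlike number, so they cannot decide whether the numbers mark a pairing. Of all genes, the block called 3 in the contrast that chose the members, against 0. Over all genes, the count for 4T1-control against 4T1 was 28 by DESeq2, 130 without the filter, 10 in 1 model over 7 groups, 14 without libraries of low depth, 6 without tumors under 1000000 counts and 0 to 6 with a tumor left out, against 0. Without the filter it was 131 for 4T1-CAT against 4T1-control, 16 for CAT-ABP in 4T1, 1 in CT26 (also 1 by DESeq2) and 2 for the interaction. In technical replicate 2 alone it was 2849 and 3559 between CT26 and 4T1, against 5434 and 5928. *Aldh1a3* for 4T1-CAT against 4T1-control was at 0.58 in technical replicate 1. The index tag as a covariate left the members called at 3 for CT26 against 4T1 under alum and at 0 for CAT-ABP in 4T1 and 4T1-control against 4T1. Depth limits *Stra6*, *Aldh1a1*, *Aldh1a2* and *Rarb*, which rested on few counts.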
